A study of Mus musculus with 12 samples.

Results

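Matrix metalloproteinases (Mmp), the ADAMTS proteases and the tissue inhibitors of metalloproteinases (Timp) were followed as open chromatin near their genes. Peaks of all 12 ATAC-seq libraries were merged where they overlapped by at least 1 bp. A region was taken when its nearest protein-coding gene, at most 100 kb away, was an Mmp or Adamts gene with a number or one of Timp1 to Timp4. This gave 415 regions of 153346, at 43 of the 46 such genes. The Mmp cluster of chromosome 9 held 38 of them, Mmp genes elsewhere 76, Adamts genes 276 and Timp genes 25. No region was nearest to Mmp7, Mmp21 or Adamts19. The farthest region taken lay 98889 bp from Adamts5 and was called in 2 libraries, and the nearest one left out lay 103887 bp from Adamts15 and was called in 6.

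Metalloproteinases and ADAMTS proteases are secreted or membrane-bound enzymes that need zinc and cut the extracellular matrix, the meshwork of collagens and proteoglycans around cells. Collagenases open fibrillar collagen, gelatinases cut the denatured chains, stromelysins have a broad range, and membrane-type enzymes work at the cell surface. ADAMTS enzymes cut large proteoglycans (the hyalectanases), trim procollagens, or act on cartilage oligomeric matrix protein (COMP), and Timp proteins block the active site of many of these enzymes. Mesenchymal cells of bone make and remodel this matrix, and Mmp13 is the collagenase best known from cartilage and bone.

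ATAC-seq, in which a transposase cuts open DNA, was run on mouse cells labelled MSCLCs, which the series title places among bone mesenchymal stem cells. By their genotype labels, 4 libraries were Wt, 4 EF, 2 EF_IGF1, 1 Wt_IGF1 and 1 EF_IGF1_xeno, where EF goes with the EWS::FLI1 fusion of Ewing sarcoma named in the title. Every EF, EF_IGF1 and EF_IGF1_xeno library came from one of the lines S_220 and S_221. In EF, replicates 1 and 3 were S_220, and replicates 2 and 4 were S_221. EF_IGF1 replicate 1 was labelled S_220, and EF_IGF1 replicate 2 and EF_IGF1_xeno were labelled S_221. The Wt replicates were WT_1, WT_2, BM and S_203, and Wt_IGF1 was BM. Replicates 1 and 2 of Wt and EF ran on flowcell BSF_0654, and the rest on BSF_1013. The design text names WT, EFPrx1, ha-EFPrx1 and hr-EFPrx1 cells without assigning them to samples. The sources used here do not give strain, age, sex, number of animals, the dose of IGF1, the driver of the fusion, any host behind the word xeno or whether a line is 1 clone. P-values therefore measure the spread between these libraries, which may be technical. Tests and SDs of EF count its 4 libraries as independent, although they are repeats of lines S_220 and S_221.

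Read depth is unknown, since the files hold peak lists; the number of regions called, 7464 to 79524 a library, stands in for it. Levels are given as regions called per 10000 regions of the library. Wt replicate 1 had by far the shortest list, 7464 regions, and 6 of the protease and inhibitor regions. Wt replicate 2 stood apart in its markers. It held 70.7% of the regions near 14 hematopoietic genes, against 6.77% to 30.8% in the other libraries. Of the regions near 13 mesenchymal genes it held 15.9%, while every other library but Wt replicate 1 (0.498%) held 16.9% to 54.7%. Its calls ranged from 0 of 19 regions at Col1a2, 0 of 15 at Col3a1 and 2 of 26 at Prrx1 to 6 of 17 at Pdgfra, 4 of 9 at Eng and 9 of 20 at Nt5e. EF_IGF1 replicate 1, labelled S_220, shared more regions with EF replicate 4 of line S_221 (Jaccard index 0.599) than with EF replicate 3 of its own label (0.406). The library labelled EF_IGF1 S_220 is therefore named by its label only. In bulk libraries, fewer cells of a type and less open chromatin per cell cannot be told apart.

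The 10 genes of the Mmp cluster stand in a row over 427 kb of chromosome 9, from 7272514 to 7699585 (GRCm38), 232 kb from Yap1. RefSeq promoter windows, from 250 bases before a start to 50 after it (GRCm38.p6), were found for 32 of the 46 genes. In the cluster, 7 of 10 genes had the AP-1 motif TGAGTCA in such a window, as these letters or as their reverse complement TGACTCA: Mmp13, Mmp12, Mmp1b, Mmp3, Mmp1a, Mmp10 and Mmp7. No other protease or inhibitor gene with a window had it, and 4.69% of the 21045 promoter windows of all genes did. The same 7 windows also held TATAAA, a pair present in 0.86% of all windows. Cluster windows had a low GC content, with a median of 41.7% (range 37.7% to 52.0%, 12 windows) against 64.7% (53.3% to 80.0%, 23 windows) for the other members and 56.7% over all genes. Among all windows with at most the cluster's highest GC content, 6.78% held TGAGTCA and 26.3% held TATAAA. The 120 bases before the start are shown for the cluster promoters that were called in any library, and for Mmp7, which was not, as it also holds the AP-1 motif. Capitals mark, on either strand, the AP-1 motif, the TATA box and AACCACA, the letters of a RUNX motif (in 4.74% of all windows), and all sequences are written 5′ to 3′ on the gene's strand.
Mmp13: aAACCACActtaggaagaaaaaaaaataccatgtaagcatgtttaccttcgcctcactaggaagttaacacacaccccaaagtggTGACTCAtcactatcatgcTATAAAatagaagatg
Mmp1b: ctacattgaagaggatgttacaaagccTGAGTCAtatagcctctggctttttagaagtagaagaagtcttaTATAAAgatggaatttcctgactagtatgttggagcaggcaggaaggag
Mmp3: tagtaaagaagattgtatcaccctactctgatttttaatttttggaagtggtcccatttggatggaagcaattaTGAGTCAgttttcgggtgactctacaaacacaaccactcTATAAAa
Mmp1a: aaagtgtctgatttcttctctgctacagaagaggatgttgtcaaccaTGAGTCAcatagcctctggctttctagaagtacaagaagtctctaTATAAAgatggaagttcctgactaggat
Mmp10: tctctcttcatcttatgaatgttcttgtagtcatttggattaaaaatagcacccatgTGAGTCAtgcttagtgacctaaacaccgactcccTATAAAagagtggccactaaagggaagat
Mmp7: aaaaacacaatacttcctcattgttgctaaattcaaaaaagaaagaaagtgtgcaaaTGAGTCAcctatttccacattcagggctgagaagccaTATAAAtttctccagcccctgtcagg
Mmp12: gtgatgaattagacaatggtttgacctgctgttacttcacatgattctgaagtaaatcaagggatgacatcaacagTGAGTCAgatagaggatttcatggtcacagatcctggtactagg
Mmp27: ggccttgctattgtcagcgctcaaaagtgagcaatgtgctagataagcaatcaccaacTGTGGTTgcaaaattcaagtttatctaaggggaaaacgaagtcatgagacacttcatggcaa
Mmp8: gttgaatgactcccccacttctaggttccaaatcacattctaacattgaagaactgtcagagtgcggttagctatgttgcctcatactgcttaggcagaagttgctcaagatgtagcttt

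In the first 6 of these, TGAGTCA is followed by TATAAA before the start. In Mmp12, shown at its second RefSeq start, TATAAA lies after the start and is not printed. Mmp1a and Mmp1b are close paralogs related to the interstitial collagenase gene, and how reads shared between such copies were assigned is not stated. Mmp27 and Mmp8 lack TGAGTCA in the window, and Mmp8's TATAAA runs past the printed end. The printed stretches are chr9:7272394-7272513 (Mmp13), chr9:7388027-7388146 (Mmp1b, minus strand), chr9:7445702-7445821 (Mmp3), chr9:7464021-7464140 (Mmp1a), chr9:7502222-7502341 (Mmp10), chr9:7691970-7692089 (Mmp7), chr9:7347254-7347373 (Mmp12), chr9:7571276-7571395 (Mmp27) and chr9:7558309-7558428 (Mmp8), on the plus strand except Mmp1b. Promoters of Timp1 and Mmp14, which were called in 10 and 9 libraries, are given for contrast. They come from chrX:20870046-20870165 and chr14:54431478-54431597, both on the plus strand, and hold none of these motifs in the window.
Timp1: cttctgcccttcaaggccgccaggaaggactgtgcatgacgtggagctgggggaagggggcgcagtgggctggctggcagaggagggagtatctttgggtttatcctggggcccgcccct
Mmp14: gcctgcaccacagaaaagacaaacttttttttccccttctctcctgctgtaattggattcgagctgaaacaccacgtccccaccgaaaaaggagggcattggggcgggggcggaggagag

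The cluster promoters were called in some libraries and absent from others. Of the 10 cluster genes, 5 had a called promoter window in EF replicate 1 and 4 in EF replicate 3, the S_220 pair. None had one in EF replicate 2 or EF replicate 4, the S_221 pair. Wt replicates 1 to 4 had 0, 4, 2 and 5, and Wt_IGF1 had 4. EF_IGF1 replicate 1 had 1, at Mmp13, and EF_IGF1 replicate 2 and EF_IGF1_xeno had 0. Over all 17274 genes with a window, the share called was 51.5% in EF replicate 1, 53.6% in EF replicate 3, 44.1% in EF replicate 2, 53.5% in EF replicate 4, 52.2% in EF_IGF1 replicate 2 and 51.3% in EF_IGF1_xeno, so EF replicate 4 and EF replicate 3 were alike in promoters overall and apart in this cluster.

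**Figure D1:**
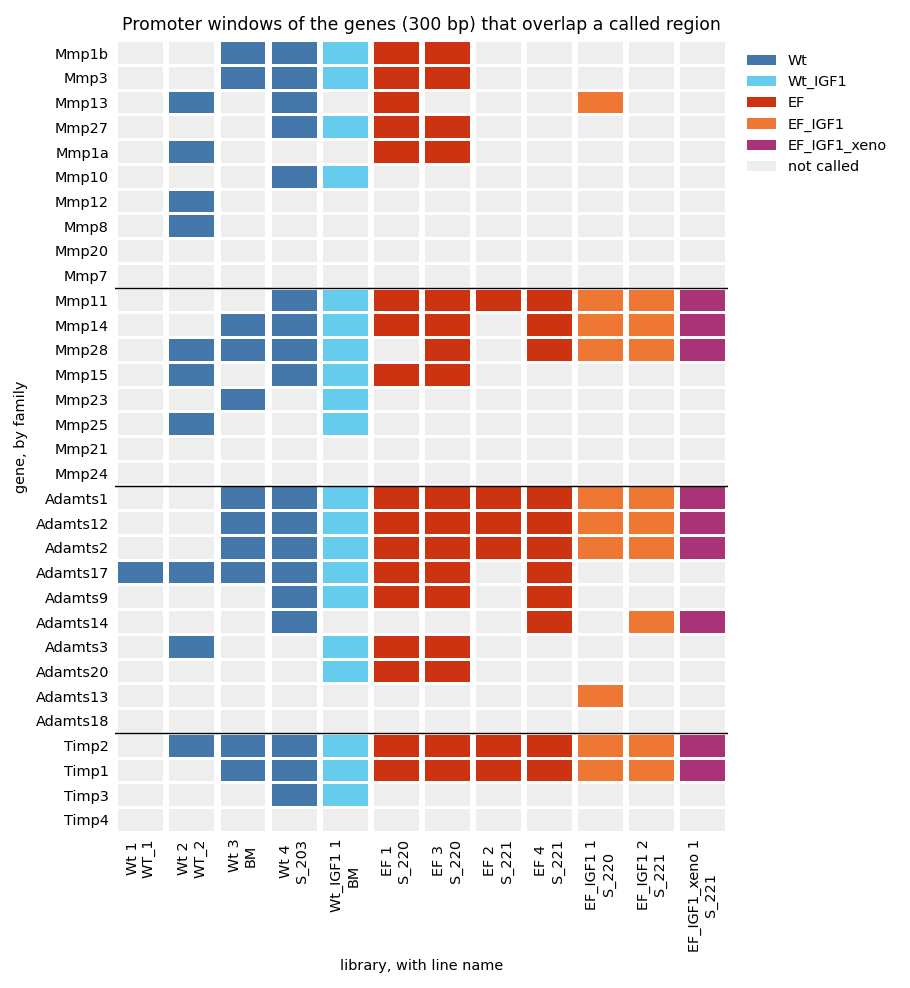
Promoter windows of 32 genes, by family (rows), that overlap a called region in each library (columns, with line names); coloured squares are called, grey ones not. Mmp1b and Mmp3 are coloured in the same 5 libraries, Wt replicates 3 and 4, Wt_IGF1, EF 1 and EF 3, while Timp2 is coloured in 11.

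Mmp1b and Mmp3, a collagenase and a stromelysin, had promoter calls in exactly the same 5 libraries: Wt replicates 3 and 4, Wt_IGF1, EF replicates 1 and 3. The Mmp1b promoter region, chr9:7387811-7388681, had a fold over local background of 14.0 in Wt replicate 4, 6.99 in Wt replicate 3, 9.34 in Wt_IGF1, 13.8 in EF replicate 1 and 8.65 in EF replicate 3 (the authors' own value for a peak). Within its list it ranked above 83.1% of peaks in Wt replicate 4 and 87.7% in EF replicate 1, but above only 34.4% in Wt replicate 3. The Mmp3 promoter region, chr9:7445365-7446060, ranked between the percentiles 12.9 (Wt_IGF1) and 59.8 (Wt replicate 4). A second Mmp3 region at the 3′ end of the gene interval, chr9:7454793-7455472, was called only in EF replicates 1 and 3, at the percentiles 91.7 and 92.2 of their lists.

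Other cluster promoters followed related patterns. Mmp27 was called in Wt replicate 4, Wt_IGF1 and EF replicates 1 and 3, and Mmp10, stromelysin-2, in Wt replicate 4 and Wt_IGF1. Mmp1a was called in Wt replicate 2 and EF replicates 1 and 3. Mmp13 was called in Wt replicates 2 and 4, EF replicate 1 and EF_IGF1 replicate 1. Mmp8, the neutrophil collagenase, and Mmp12, the macrophage elastase, were called in Wt replicate 2 and in no other library, the library in which hematopoietic markers such as Ptprc (13 of 18 regions) and Spi1 (10 of 12) were mostly called. The part of blood cells in these calls was not tested. Mmp7 and Mmp20, the enamel protease enamelysin, had no promoter call in any library.

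Across its 38 regions the cluster had the same split. The libraries called 11 (EF replicate 1), 15 (EF replicate 3), 1 (EF replicate 2), 3 (EF replicate 4), 4 and 3 (EF_IGF1 replicates 1 and 2) and 2 (EF_IGF1_xeno). Wt replicates 1 to 4 called 2, 16, 8 and 23, and Wt_IGF1 called 14. EF replicate 4, with 64961 regions in all, thus called 3 cluster regions where Wt replicate 4, with 66954, called 23. At least 1 of Wt replicates 3 and 4, Wt_IGF1 and EF replicates 1 and 3 called 31 of the 38 (81.6%), and at least 1 of EF replicates 2 and 4, EF_IGF1 and EF_IGF1_xeno called 6 (15.8%). For all regions of the genome these shares were 71.0% and 55.2%. For all 415 member regions they were 83.6% and 54.5%, so the cluster's first share was not above that of the members. These sets of libraries were put together after the calls were seen, so the shares are a description.

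**Figure D2:**
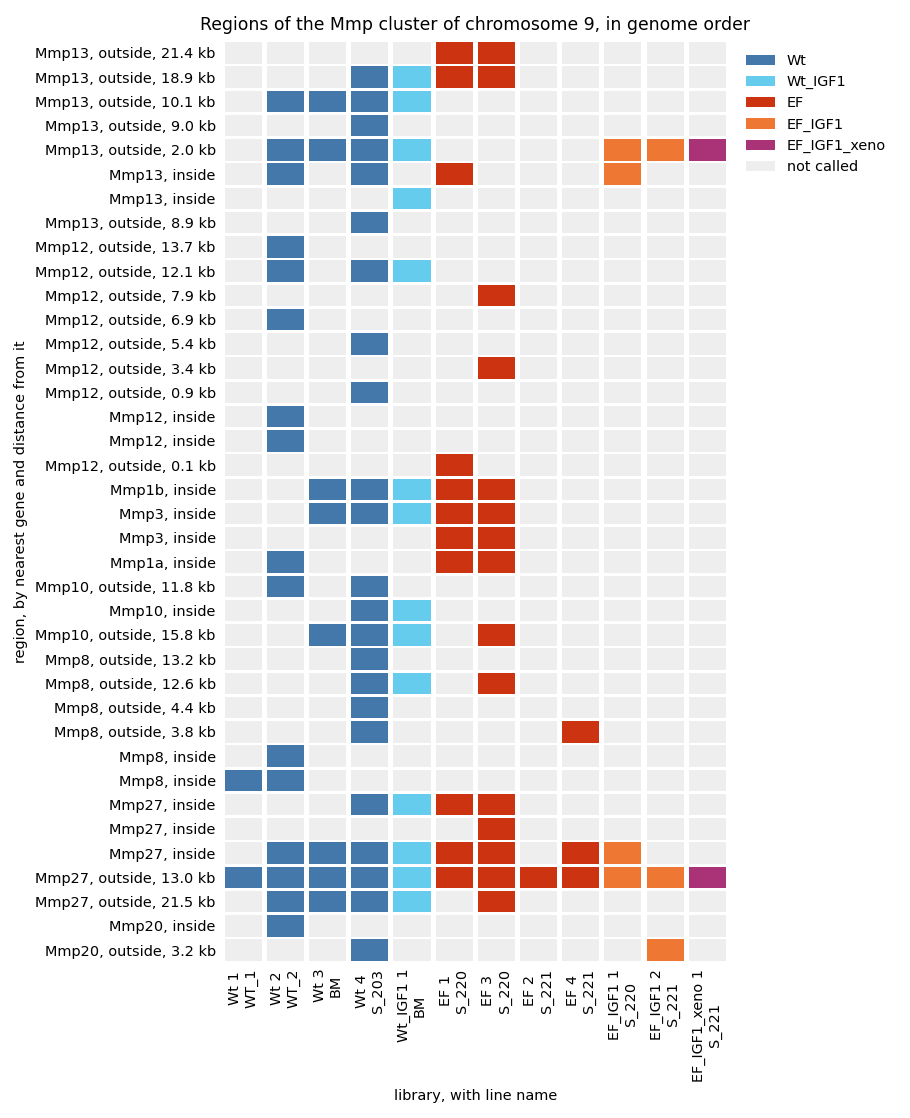
The 38 regions of the chromosome 9 cluster (rows, in genome order, named by nearest gene and distance from it) in the 12 libraries (columns); coloured squares are called. The columns of EF 2, EF 4, both EF_IGF1 and EF_IGF1_xeno hold 1 to 4 coloured squares, against 11 and 15 for EF 1 and EF 3.

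Per 10000 regions, the cluster stood at 2.58 ± 0.812 in Wt (SD, n = 4) and 1.51 ± 1.29 in EF (SD, n = 4), so the groups overlapped. Within EF, the mean was 2.59 in S_220 and 0.427 in S_221. It was 0.602 in EF_IGF1, 0.488 in EF_IGF1_xeno and 1.76 in Wt_IGF1. Among only the top 20000 peaks of each library, 4 and 3 cluster regions were left in EF replicates 1 and 3 and 1 in each of EF replicates 2 and 4, but Wt replicate 3 and Wt_IGF1 also had 1, while Wt replicate 4 had 8. A region called in both S_220 and neither S_221 libraries counts here as gained in S_220, and the reverse as lost. Of the cluster's 38 regions 7 (18.4%) were gained and 0 lost, against 5.38% and 2.57% of all regions. All 7 were also absent from EF_IGF1 and EF_IGF1_xeno. They lay at Mmp3 and Mmp13 (2 regions each), Mmp1a, Mmp1b and Mmp27. Within flowcell BSF_1013, EF replicate 3 against EF replicate 4 gained 54 member regions (13.0%, background 9.91%) and lost 94 (22.7%, background 19.4%), and the cluster gained 13 and lost 1.

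Between genotypes the cluster gained no region and lost 2, both upstream of Mmp13. In EF against Wt, gained means called in at least 3 of 4 EF and no Wt library, and lost the reverse. Over all families 5 of the 415 regions were gained (1.20%, background 1.19% of all regions) and 3 lost (0.723%, background 0.938%), shares near or under the background. The first, chr9:7261502-7262398, 10116 bp outside the gene, was called in Wt replicates 2, 3 and 4 and Wt_IGF1 and in no EF, EF_IGF1 or EF_IGF1_xeno library. The second, chr9:7270073-7270506, 2008 bp outside it, was called in the same 4 libraries and again in both EF_IGF1 libraries and EF_IGF1_xeno. Its highest −log10 p, 24.1, was in EF_IGF1 replicate 1. The Mmp13 promoter itself went with neither group, and each loss rests on calls in Wt replicates 2, 3 and 4 together.

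One cluster region was open throughout. The region chr9:7594891-7595704, 13006 bp outside Mmp27 on the Mmp20 side, was called in all 12 libraries, among 4 such regions of the 415 (0.964%, against 4.20% of all regions with a gene). The other 3 lay 10952 bp outside Mmp19 (chr10:128778931-128779958), at one end of Mmp28 (chr11:83440097-83441095) and near the start of Adamts6 (chr13:104286718-104287243). The one at Mmp28 also overlaps the gene 1700020L24Rik and can belong to either gene. Of the cluster's regions, 44.7% were called in 1 library only, against 35.7% of all regions with a gene and 21.1% at Mmp genes elsewhere.

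Mmp genes outside the cluster were open in more libraries. Of their 76 regions, 27.6% were called in 9 or more libraries, against 17.7% of all regions with a gene. Per 10000 regions they stood at 4.93 ± 1.60 in Wt (SD, n = 4), 6.35 ± 1.29 in EF (SD, n = 4), 7.43 in EF_IGF1, 8.30 in EF_IGF1_xeno and 5.91 in Wt_IGF1. The Wt and EF groups overlapped, and within EF the order of the lines was the reverse of the cluster's, with 5.28 in S_220 and 7.41 in S_221.

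**Figure D3:**
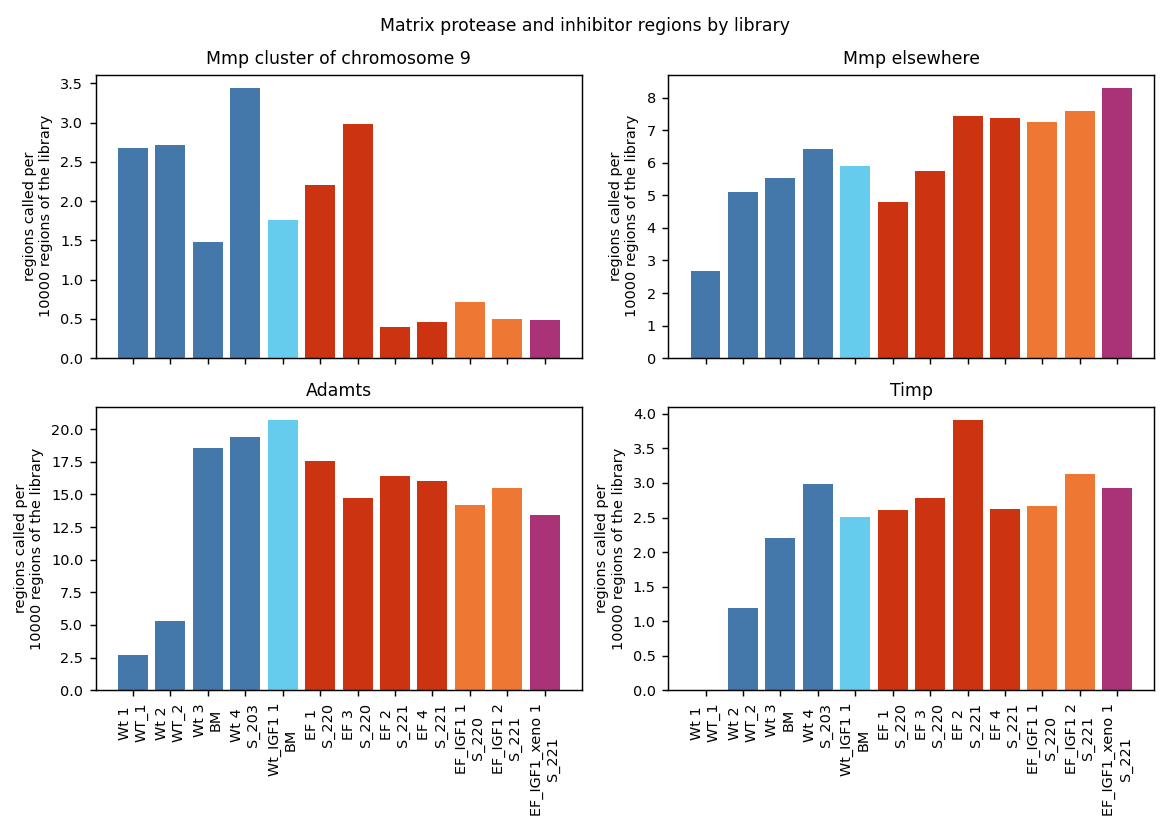
Regions of each family called per 10000 regions of the library (bars, 1 per library, coloured by genotype group; vertical axes start at 0 and differ between panels). The cluster bars of EF 2, EF 4, EF_IGF1 and EF_IGF1_xeno stay below 0.8, and the Adamts bars of Wt 1 and Wt 2 below those of all other libraries.

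Mmp14, the membrane-type protease that activates pro-Mmp2, was called at 8 regions. EF replicates 1 to 4 called 4, 2, 4 and 7 of them, and Wt replicates 1 to 4 called 0, 3, 4 and 5. Per 10000 regions this was 0.802, 0.782, 0.794 and 1.08 in EF and 0, 0.510, 0.738 and 0.747 in Wt, which did not overlap. EF averaged 0.864 ± 0.143 and Wt 0.499 ± 0.350 (SD, n = 4 each), with p = 0.0286 by a two-sided exact permutation test, the smallest that 4 against 4 allows, and an adjusted p of 0.735 (Benjamini-Hochberg over 17836 genes). The raw counts overlap, so the order rests on the scaling to list length. Its promoter region, chr14:54431198-54431806, was called in 9 libraries. Another region inside the gene, chr14:54432152-54432614, was called in EF replicates 3 and 4, EF_IGF1 and EF_IGF1_xeno and in no Wt or Wt_IGF1 library.

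Mmp11, stromelysin-3, had 2 regions, and every EF, EF_IGF1 and EF_IGF1_xeno library called both. Wt replicates 1 to 4 called 0, 0, 1 and 2 of them and Wt_IGF1 called 2. Scaled, EF gave 0.401, 0.782, 0.397 and 0.308 and Wt gave 0, 0, 0.184 and 0.299, so the lowest EF and the highest Wt value nearly met. The counts overlap, with 2 in every EF library and in Wt replicate 4, and the order again rests on list length. The averages were 0.472 ± 0.211 and 0.121 ± 0.147 (SD, n = 4 per group; exact permutation p = 0.0286, adjusted p = 0.735). The promoter of Mmp11 was called in all 4 EF libraries and, among Wt, in replicate 4 alone.

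Mmp14, Mmp11 and Adamts4 were the 3 of 43 member genes tested (6.98%) that were higher in EF without overlap. Over all genes 2.93% were higher and 0.959% lower in this way, and 0 of the 43 were lower. By the permutation test 693 of 17836 genes had an unadjusted p under 0.05 and none passed after adjustment. Among the top 20000 peaks of each library, Mmp11, Timp1 and Timp2 were the member genes higher in EF, and Mmp14 and Adamts4 were not. For Mmp14 and Mmp11 the 2 lowest Wt values belong to the library with the shortest list and the one with hematopoietic markers. Within BSF_1013, which leaves both out, all 3 genes were higher in both EF than in both Wt libraries. That had to follow, since the genes were picked for a lack of overlap over libraries that include these, so it is no separate support. Mmp17 and Mmp28 were also higher within BSF_1013, and Mmp9, Timp4, Adamts6, Adamts7, Adamts9 and Adamts17 were lower. With 2 against 2 libraries 19% of all genes were higher and 11% lower in this way, beside 11.6% and 14% of the 43 members.

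Mmp2, the gelatinase that cuts denatured and basement membrane collagen, had 20 regions, the most of any Mmp gene. EF replicates 1 and 3 called 4 each, EF replicates 2 and 4 called 5 and 13, EF_IGF1 called 10 and 12 and EF_IGF1_xeno 9. Wt replicates 1 to 4 called 0, 6, 6 and 9, and Wt_IGF1 called 12. The S_221 libraries gained 2 Mmp2 regions over both S_220 libraries. The strongest of all 20 regions, chr8:92846681-92847879, was called in every EF, EF_IGF1, EF_IGF1_xeno and Wt_IGF1 library and in Wt replicate 2. Mmp9, the gelatinase of neutrophils and osteoclasts, had its strongest region, chr2:164942799-164943339, in Wt replicate 2 alone, with a fold of 9.80 and a −log10 p of 51.7. Beside it stand the hematopoietic markers of that library given above, whose part in this call was not tested.

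Mmp28, epilysin, and Mmp24, a membrane-type enzyme, had regions called in some groups and absent from others. At Mmp28, chr11:83466964-83467679, 3924 bp outside the gene, was called in all 4 EF libraries, both EF_IGF1 and EF_IGF1_xeno, and in no Wt or Wt_IGF1 library. It was the only one of the 5 gained member regions called in all 4 EF libraries. A neighbour less than 1 kb away, chr11:83466003-83466324, was called in both EF_IGF1 and EF_IGF1_xeno and nowhere else, Wt_IGF1 included. At Mmp24, chr2:155811781-155812049 was called in Wt replicates 2, 3 and 4 only and was lost in EF. A second Mmp24 region, chr2:155809677-155809968, was called only in EF_IGF1 and EF_IGF1_xeno. Yet another, chr2:155806419-155807052, was called in Wt replicate 4, EF replicates 2 and 4, both EF_IGF1 and EF_IGF1_xeno, with its highest −log10 p, 65.5, in EF_IGF1 replicate 1.

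The Adamts genes, many of them long, had 4 to 30 regions each where they had any, led by Adamts2 and Adamts16 with 30 each and Adamts6 with 29. Per 10000 regions Wt stood at 11.5 ± 8.76 and EF at 16.2 ± 1.22 (SD, n = 4 per group). The Wt spread came from replicates 1 and 2, at 2.68 and 5.27, and within BSF_1013 the order was reversed, with a mean of 19 in Wt and 15.3 in EF. In that flowcell 25 of 276 Adamts regions (9.06%) were called in both Wt and neither EF library. Over all families 30 of 415 (7.23%) were so lost, background 4.57%, and 11 (2.65%) gained, background 1.91%. Adamts9, an aggrecan- and versican-cutting hyalectanase, had 6 of the losses, Adamts6 had 4 and Adamts17 had 3.

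**Figure D4:**
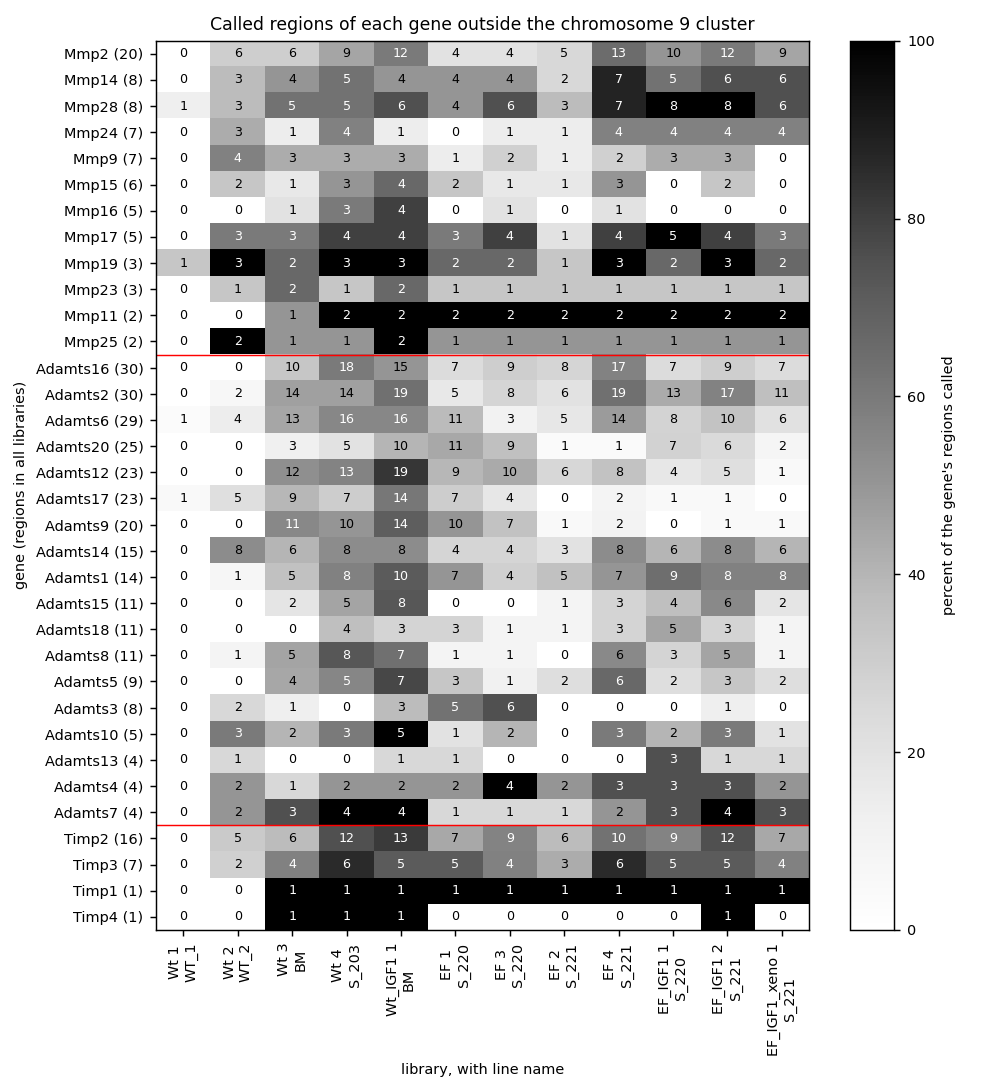
Number of regions called (figures in the cells) of each gene outside the chromosome 9 cluster, with the total over all libraries in brackets; shading gives the percent of the gene's regions called. Adamts20, Adamts3, Adamts9 and Adamts17 have higher numbers in EF 1 and EF 3 than in EF 2 and EF 4, and Mmp2 has its highest EF number in EF 4.

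In untreated EF, several Adamts genes had calls in one line and few or none in the other. Of all member regions 31 (7.47%) were gained in S_220 against S_221 and 21 (5.06%) lost, beside the shares of all regions given above, and 22 and 17 of these were Adamts regions. Adamts20, the hyalectanase known from pigment cell migration, called 11 and 9 of its 25 regions in S_220 and 1 and 1 in S_221. Adamts3, which trims procollagen, called 5 and 6 of 8 in S_220 and 0 and 0 in S_221. Its region chr5:89897476-89897898 was called only in the S_220 pair. Adamts9 called 10 and 7 of 20 in S_220 and 1 and 2 in S_221, and its strongest region, chr6:92920895-92921656, was again called in the S_220 pair alone. With IGF1 the lines were less apart at Adamts20. EF_IGF1 replicate 2 and EF_IGF1_xeno, also labelled S_221, called 6 and 2 regions there, 1 and 0 at Adamts3 and 1 and 1 at Adamts9. EF_IGF1 replicate 1, labelled S_220, called 7, 0 and 0 at these genes. Lost in S_220 were 4 regions of Adamts16, 3 of Adamts14 and 2 each of Adamts1, Adamts2 and Adamts12. EF replicate 2 had the shortest EF list, so a closed region and a shallow library cannot be told apart there.

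Adamts4, an aggrecanase, had 4 regions. EF replicates 1 to 4 called 2, 2, 4 and 3, and Wt replicates 1 to 4 called 0, 2, 1 and 2. Scaled, EF averaged 0.610 ± 0.207 and Wt 0.206 ± 0.152 (SD, n = 4 per group), which did not overlap (p = 0.0286 by the same exact test, adjusted p = 0.735). Its strongest region, chr1:171262466-171263692, was called in every library but Wt replicate 1. The counts overlap here too, with 2 in EF replicates 1 and 2 and in Wt replicates 2 and 4. Adamts5, the other main aggrecanase of cartilage, called 3, 2, 1 and 6 of 9 in EF and 0, 0, 4 and 5 in Wt, which overlapped.

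Adamts16 held 2 of the 5 regions gained in EF, and no Adamts region was lost. The first, chr13:70689386-70689843, 37955 bp outside the gene, was called in EF replicates 2, 3 and 4 and also in Wt_IGF1, EF_IGF1 replicate 1 and EF_IGF1_xeno. The second, chr13:70778944-70779665 inside the gene, was called in the same EF libraries and EF_IGF1 replicate 2. The remaining gains were Mmp28, Timp2 and Timp3.

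Timp genes had the most widely called regions. The median Timp region was called in 7 libraries, against 3 for all regions with a gene, and 32.0% were called in 9 or more. Timp1 has a single region, chrX:20869205-20870550, over its promoter, and it was called in all libraries but Wt replicates 1 and 2. Its fold ran from 5.57 in Wt replicate 3 to 10.4 in EF replicate 3. Timp1, Timp3 and Timp4 are nested in the synapsin genes Syn1, Syn3 and Syn2, so all 7 Timp3 regions and the regions of Timp1 and Timp4 can belong to either gene.

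Timp2, which binds Mmp14 in the activation of pro-Mmp2, had 16 regions. EF replicates 1 to 4 called 7, 6, 9 and 10, and Wt replicates 1 to 4 called 0, 5, 6 and 12. The region chr11:118360548-118361422, 5137 bp outside the gene, was gained in EF (replicates 2, 3 and 4) and also called in Wt_IGF1, both EF_IGF1 and EF_IGF1_xeno. At Timp3, a matrix-bound inhibitor, chr10:86331534-86332210 was called in EF replicates 1, 3 and 4 and nowhere else. It was thus gained in EF and absent with IGF1. The Timp4 region was called in Wt replicates 3 and 4, Wt_IGF1 and EF_IGF1 replicate 2. Per 10000 regions the Timp genes stood at 1.60 ± 1.29 for Wt and 2.98 ± 0.628 for EF (SD, n = 4 per group), and the groups overlapped.

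IGF1 in EF cells was compared within BSF_1013, as called in both EF_IGF1 and neither of EF replicates 3 and 4, or the reverse. Of the member regions 14 were gained (3.37%, background 2.70%) and 9 lost (2.17%, background 2.08%), shares near those of all regions. Gains lay at Adamts20 (3 regions), Adamts15 (2), Adamts1, Adamts2, Adamts6, Adamts7, Adamts13, Mmp9, Mmp13, Mmp24 and Mmp28. Losses lay at Adamts12 (3), Adamts17 (2), Adamts9, Adamts16, Adamts20 and Timp3. The Adamts12 losses, inside the gene of an enzyme that cuts COMP, were chr15:11084224-11085453, chr15:11105045-11105607 and chr15:11118077-11118838, and all 3 were called in Wt replicates 3 and 4, Wt_IGF1 and EF replicates 1, 3 and 4. EF_IGF1 called 4 and 5 Adamts12 regions, EF_IGF1_xeno 1, and EF replicates 3 and 4 called 10 and 8. The Adamts17 promoter region, chr7:66839385-66840247, was called in all Wt libraries, Wt_IGF1 and EF replicates 1, 3 and 4, and in no EF_IGF1 or EF_IGF1_xeno library. Since the library labelled EF_IGF1 S_220 shared more regions with S_221, line and treatment cannot be told apart for regions that differ between the lines. In line S_221 alone, without any replicate check, 37 were gained (8.92%, background 8.05%) and 47 lost (11.3%, background 10.9%).

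**Figure D5:**
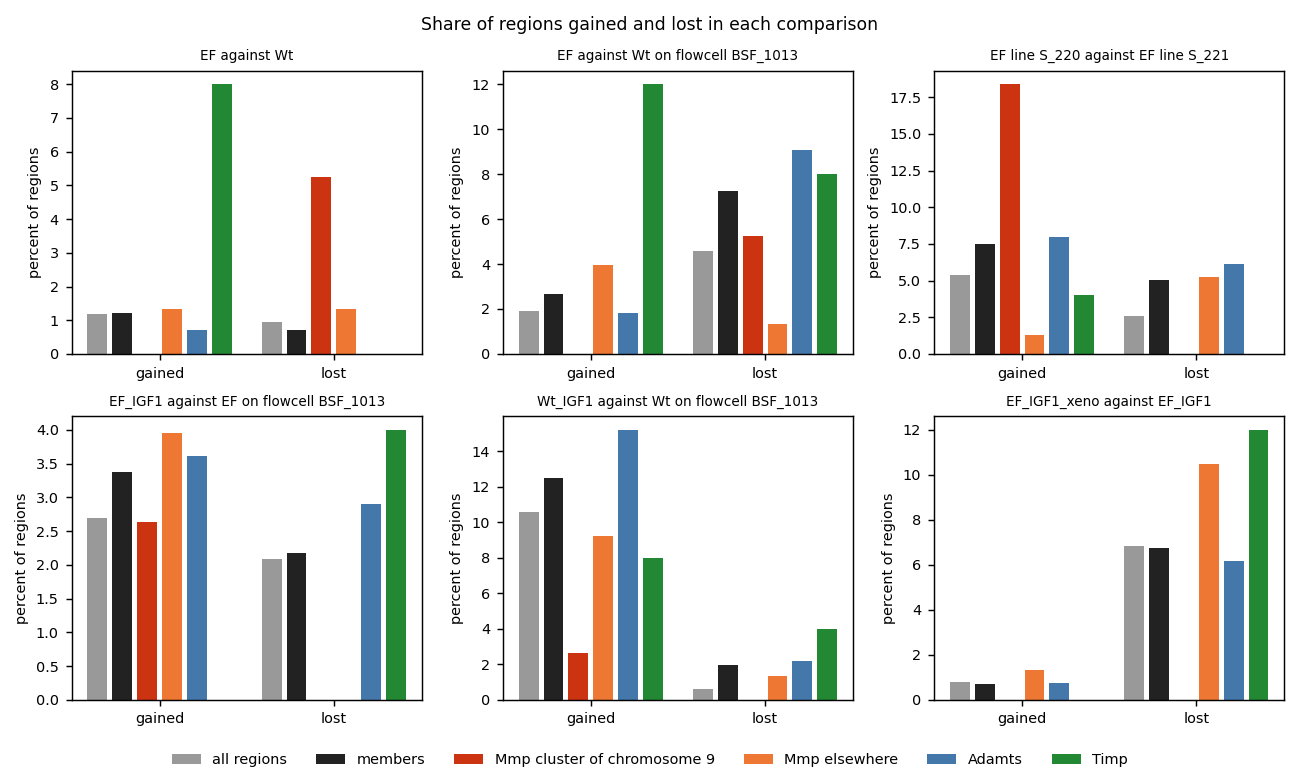
Percent of regions gained and lost in 6 comparisons (panels), for all regions, all 415 member regions and each family (bars; vertical axes start at 0 and differ between panels). In EF line S_220 against S_221 the cluster bar reaches 18.4% gained, with no cluster region lost; bars of the Timp family stand for 25 regions only.

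Wt_IGF1 and EF_IGF1_xeno are single libraries, so these comparisons have no replicate check. Wt_IGF1 against Wt replicates 3 and 4 gained 52 member regions (12.5%, background 10.6%), 42 of them Adamts, and lost 8 (1.93%, background 0.624%). Wt_IGF1 had the longest list of all libraries. The losses lay at Adamts16 (2), Adamts6, Adamts8, Adamts9, Adamts17, Mmp24 and Timp3. EF_IGF1_xeno against EF_IGF1 gained 3 (0.723%, background 0.794%) and lost 28 (6.75%, background 6.83%). The gains were 2 regions of Adamts16, chr13:70705995-70706216 and chr13:70734014-70734301, and chr8:92838612-92839092 inside Mmp2. The losses included 3 each at Adamts12 and Mmp9, and Mmp9 had no region called in EF_IGF1_xeno. Regions called in both EF_IGF1 and EF_IGF1_xeno and in no other library numbered 4 (0.964%, against 0.696% of all regions), at Mmp24, Mmp28, Adamts13, the von Willebrand factor protease, and Adamts20 (chr15:94468696-94469255).

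Genes that act with these enzymes were taken as 3 lists: regulators and activators (24 of 26 genes with regions, 319 regions), other matrix proteases (15 genes, 176 regions), and proteoglycan and COMP substrates (5 genes, 29 regions). In EF against Wt the regulators gained 0 and lost 4 regions (1.25%, background 0.938%), the other proteases gained 1 and lost 1 (0.568% each, background 1.19% gained), and the substrates gained and lost none. The 4 losses, a share close to the background, lay at Reck, a membrane-bound Mmp inhibitor, Pcsk6, a proprotein convertase, Lrp1, an endocytic receptor for proteases, and Spock1, a proteoglycan. The protease gain lay at Adam9 and the loss at Ctsl. With IGF1 in EF, the lists gained 4 (1.25%), 1 (0.568%) and 2 (6.90%) regions, background 2.70%, and lost 10 (3.13%), 3 (1.70%) and 1 (3.45%), background 2.08%. In S_220 against S_221 they gained 15 (4.70%), 12 (6.82%) and 1 (3.45%), background 5.38%, and lost 8 (2.51%), 5 (2.84%) and 1 (3.45%), background 2.57%. The 2 larger lists thus stood near the background between the lines. Serpine2, a serine protease inhibitor, and Fap, the fibroblast activation protease, are named from them after their values were seen. Serpine2 called 6 and 9 of its 21 regions in S_220 and 0 and 1 in S_221, and Fap called 4 and 3 of 5 against 0 and 0.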

How the data were processed

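The 12 libraries were analysed from one peak list each. Cells were opened with digitonin in the transposase mix and sequenced single-end, per the labels' protocols. The peak caller MACS2 (no version) and the build GRCm38.p3 come from the submitters' processing notes; aligner, filters and read shift: not given in the sources used here. The deposited lists hold a fold over local background (ratio), −log10 p, −log10 q and a score of 10 times −log10 q per peak, computed by the authors and used here only within a list. Peaks on chromosomes 1 to 19 and X were merged into regions, and a gene interval (RefSeq GRCm38.p6) within 100 kb was assigned; where 2 genes overlapped a region, the gene with the end nearest the region's middle was taken. Calls are yes or no. Regions got no test. Genes got an exact permutation test (70 label orders) on regions per 10000, adjusted over 17836 genes. The test was tried on simulated independent counts. These had no unequal list lengths and no repeats of a line, so the trial does not cover those features of the data. Named genes were those with a gained or lost region, the cluster, the Timp genes and the 10 with most regions. Outside this rule, Mmp11 was named after its values were seen, for its lack of overlap between EF and Wt. Mmp21 and Adamts19 were named as genes without a region. Members, lists and comparisons between lines or within a flowcell were chosen with earlier results of these data known. Python 3.11.15, pandas 2.3.3 and numpy 2.4.6 were used. Alternatives are given at the end.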

Additional observations from a re-analysis of the deposited data

Results flagged for a closer look

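EF replicate 2 stood apart in Timp regions, with 3.91 per 10000 regions against 2.61, 2.78 and 2.62 in EF replicates 1, 3 and 4. It had the shortest EF list. Chance flags about 1 in 20 groups of 4. For Adamts regions, IGF1 minus untreated was -0.498 per 10000 in the libraries labelled S_220, -0.503 in S_221 and 2.11 in the Wt line BM. The difference between Wt and EF was not tested, and each value rests on 1 treated and 1 untreated library.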

How the results depend on the processing

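Counts of member regions moved with the set of libraries. EF against Wt gained 5 and lost 3; within BSF_1013 alone these were 11 and 30 (all regions 1.91% and 4.57%), and within BSF_0654 alone 28 and 1 (all regions 4.09% and 0.490%), so the counts over all regions moved too. Leaving out 1 library gave 1 to 11 gained (1 without EF replicate 3 or 4, 2 without EF replicate 2, 11 without Wt replicate 4) and 0 to 4 lost (0 without Wt replicate 2, 3 or 4). Genes higher without overlap numbered 3 to 6 with 1 library left out (6 without Wt replicate 4) and 5 within BSF_1013; lower ones numbered 0 to 1 (1 without EF replicate 1 or Wt replicate 1 or 3) and 6. For IGF1 in EF, leaving out a library gave 14 to 54 gained and 11 to 60 lost (54 and 60 without EF replicate 4), and line S_221 alone 37 and 47. Wt_IGF1 gained 78 to 106 and lost 11 to 48 against 1 Wt library (106 without Wt replicate 4, 48 without Wt replicate 3). EF_IGF1_xeno gained 8 to 9 and lost 46 to 67 against 1 EF_IGF1 library. Under these IGF1 and xeno rules, and for genes without overlap, leaving out a library can only keep or raise a count. With the top 20000 peaks, losses in EF were 0, IGF1 in EF gained 6 and lost 2, Wt_IGF1 gained 3, and EF_IGF1_xeno gained 5 and lost 8. Genes within 10 kb gave 7 gained with IGF1 in EF. The other 41 values stayed within 1.5 times, including all those with stricter peaks (−log10 q of 5 or more), summit windows, or without regions that overlap a second gene, an alternative chosen after seeing the data. No paired analysis was possible between EF and Wt because replicate numbers follow the order of accession and no line is shared. The main IGF1 counts pooled lines. Only line S_221 alone, Wt_IGF1 without Wt replicate 4 (line BM alone) and the Adamts differences were by line. None of these had a test. Depth is unknown, so a missing call can be a shallow library.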
